A study of Mus musculus with 6 samples.

Results

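Potassium channel subunits were taken as all genes whose symbol in the annotation of the array begins with Kcn. These were 80 of the 16593 genes on the array, read by 119 of its 25697 probes. RNA came from the gastrocnemius muscle of adult male mice, aged 12 weeks, from whose left sciatic nerve a piece of 2 mm had been cut out. The denervated muscle was taken 14 days after the lesion, and the gastrocnemius of the right leg, which had kept its nerve, served as control. Each of 3 denervated and 3 control samples was hybridized to 1 Illumina mouse bead array. The strain of the mice and their number are not given in the sources used here, and the labels do not say that a replicate number marks a mouse, so the p-values measure only the spread between these samples. The control leg belonged to an operated animal, and whole muscle was used, so that fewer cells of a type and less RNA per cell cannot be told apart. The 6 arrays shared 1 chip on which each group had its own run of positions, and an effect of position cannot be told apart from one of group.

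Potassium channels let potassium leave the cell along its gradient and so set the resting potential and end the action potential. In skeletal muscle, inward rectifiers hold the resting membrane of the fiber and of its transverse tubules, voltage-gated (Kv) channels repolarize it, two-pore (K2P) channels carry a leak current, and calcium-activated channels open after a spike or a rise in calcium. Many Kcn genes code not for a pore but for a subunit that changes the gating or the traffic of one. Muscle also holds nerve branches, Schwann cells, vessels and immune cells, which express channels of their own.

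Of the 80 genes, 28 had a probe that was kept, that is, one with a detection p under 0.05, or above background, on 3 or more of the 6 arrays, regardless of group. This was 35% of the channel genes, beside 52.7% of all genes, and 42 channel genes were above background on no array. In denervated muscle 6 of the 28 were higher than in control muscle, 9 were lower and 13 passed the threshold in neither direction (limma, Benjamini-Hochberg adjustment over all kept probes, adjusted p under 0.05). That is 53.6% called, 21.4% higher and 32.1% lower, beside 43.8% called, 22.2% higher and 21.6% lower among all 8740 genes with a kept probe. A gene kept through 1 group alone was selected partly for being brighter there, so the shares among kept genes describe this selection. Without any filter on dim probes, 15 of the 80 genes were called, 6 higher and 9 lower, which is 18.8%, beside 22.4% of all 16593 genes, so that the share of channel genes called lay near that of all genes. In that fit Kcnab2 was not called (adjusted p = 0.0723) and Kcnn3, which had no kept probe, was. The log2 fold change had a median of -0.17 and a median size of 0.61 over the 28 kept channel genes, beside -0.0033 and 0.35 over all kept genes. Changes that were called and larger than 2-fold by the fitted value were found in 12 channel genes (42.9% of those kept, 4 higher and 8 lower), beside 11.9% of all kept genes. For Kcnq5 and Kcnk13, at background on every control array, a rise of over 2-fold was not shown, since the bounds given with these genes are smaller. Denervated and control values did not overlap in 17 channel genes (60.7% of those kept), beside 55% of all kept genes.

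**Figure D1:**
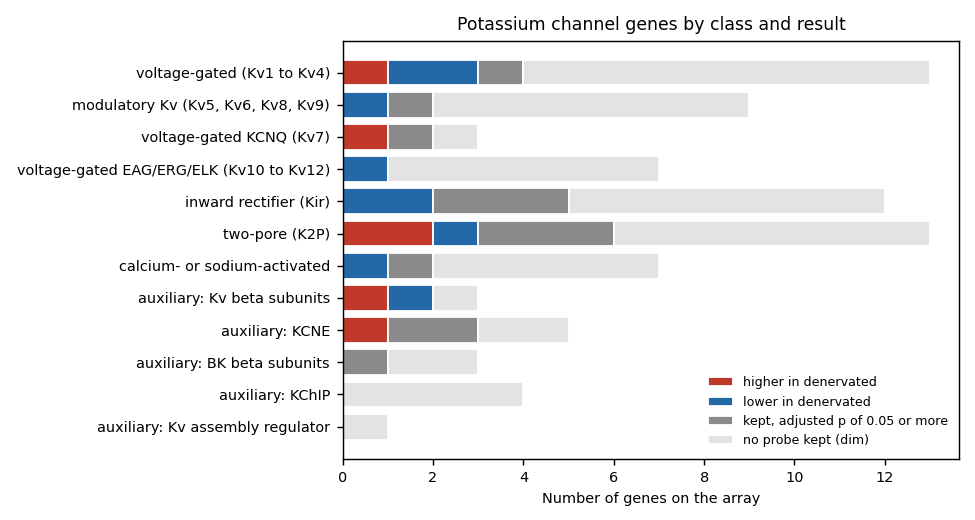
Number of potassium channel genes on the array (horizontal axis) in each class of subunit (vertical axis), split into genes higher in denervated muscle, lower in denervated muscle, kept but not called, and without a kept probe. Every class but the KChIP proteins and the Kv assembly regulator had at least 1 kept gene, and genes without a kept probe made up 52 of the 80.

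The sequences just upstream of 4 of the genes with the largest changes are shown first, because the myogenic factor Myog, which binds E-boxes, was 3.48 higher on the log2 scale in denervated muscle (SE 0.34, adjusted p = 7.56e-05, limma). Each is the 250 bases before the annotated start of transcription, 5′ to 3′ on the strand of the gene (RefSeq, mouse assembly GRCm38.p6), and capitals mark the E-box, CANNTG, which reads the same way on both strands. Kcng4 and Kcnc1 were lower in denervated muscle, Kcnk5 and Kcne1l higher.
Kcng4 (chr8:119635681-119635930, minus strand): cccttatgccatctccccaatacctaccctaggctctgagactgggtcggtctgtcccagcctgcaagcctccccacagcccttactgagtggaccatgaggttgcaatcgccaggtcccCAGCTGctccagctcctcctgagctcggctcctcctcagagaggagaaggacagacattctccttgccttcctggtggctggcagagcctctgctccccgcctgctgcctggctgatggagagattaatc
Kcnc1 (chr7:46396218-46396467, plus strand): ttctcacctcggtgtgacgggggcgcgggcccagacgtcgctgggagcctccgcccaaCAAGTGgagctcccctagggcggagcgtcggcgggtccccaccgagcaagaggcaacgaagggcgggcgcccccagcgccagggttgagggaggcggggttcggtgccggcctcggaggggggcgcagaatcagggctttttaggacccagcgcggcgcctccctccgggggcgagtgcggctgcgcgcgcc
Kcnk5 (chr14:20181783-20182032, minus strand): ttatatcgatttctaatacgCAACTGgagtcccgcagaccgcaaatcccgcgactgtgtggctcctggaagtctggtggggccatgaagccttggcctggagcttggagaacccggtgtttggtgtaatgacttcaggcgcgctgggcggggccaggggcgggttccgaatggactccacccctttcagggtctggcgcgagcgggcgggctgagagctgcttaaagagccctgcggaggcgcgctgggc
Kcne1l (chrX:142306199-142306448, minus strand): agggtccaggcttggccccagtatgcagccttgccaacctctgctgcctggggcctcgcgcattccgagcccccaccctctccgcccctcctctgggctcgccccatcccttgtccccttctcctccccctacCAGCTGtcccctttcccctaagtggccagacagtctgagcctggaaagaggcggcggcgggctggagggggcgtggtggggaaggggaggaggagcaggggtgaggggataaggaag
Each window shown held 1 E-box, at -130 in Kcng4, -192 in Kcnc1, -230 in Kcnk5 and -117 in Kcne1l, counted from the start site to the first base of the motif. This does not hold for all changed genes: Kcna7, which fell more than Kcnc1 and is not shown, had 3 in its window. In Kcng4 and Kcne1l, which changed in opposite directions, it had the letters CAGCTG. Upstream windows were found for 62 of the 80 channel genes, 84 windows in all. An E-box lay in 81% of the 21 windows of the 15 changed channel genes, in 66.7% of all 84 channel windows and in 66.2% of all 32851 windows of the same length. The share was 66.7% of 9 windows for the genes higher in denervated muscle and 91.7% of 12 windows for the genes lower in it. A gene with several windows counts several times in these shares, which rest on few windows, and whether they differ was not tested. By gene, Kcnq5 among those higher and Kcnh2 among those lower were the only ones without an E-box in any window. The form CAGCTG, which is part of the E-box count, lay in 23.8% of the windows of the changed genes (11.1% for those higher and 33.3% for those lower in denervated muscle), in 20.2% of all channel windows and in 13% of all windows. The site of the factor Mef2, also searched, lay in 0 of the 21 windows of the changed genes. It lay in 2.38% of all 84 channel windows and in 3.2% of all 32851 windows. For a motif this rare, 21 windows are too few to show a difference. A motif match is a description of these letters. Binding was not measured, and a link to Myog was not tested.

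Among the pore-forming Kv1 to Kv4 channels, Kcna7 and Kcnc1 were lower and Kcnc4 was higher in denervated muscle, and Kcna5 was called in neither direction. Kcna7 codes for Kv1.7, a delayed rectifier of the Shaker family. Its normalized log2 intensity was 7.04, 7.02 and 7.23 in denervated muscle, against 9.92, 10.01 and 10.15 in control muscle. The groups stood far apart, with little spread within either. Kcna7 changed by -2.93 ± 0.12 (log2 fold change, denervated minus control, ± SE, n = 3 per group), or 7.61-fold lower (adjusted p = 9.3e-07), the 29th largest fall among all kept genes.

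Kcnc1 codes for Kv3.1, a fast channel that opens at strong depolarization. It read 8.31, 8.20 and 8.25 in denervated muscle, against 10.87, 10.86 and 10.77 in control muscle, again with no overlap. Kcnc1 was 5.97-fold lower (-2.58 ± 0.11, adjusted p = 9.3e-07, limma). Its second kept probe was above background on no denervated array and at least 1.28-fold lower (adjusted p = 0.000197).

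Kcnc4 codes for Kv3.4, a Kv3 channel that inactivates quickly. It moved the other way: its values were 13.08, 13.32 and 13.31 in denervated muscle and 12.74, 12.75 and 12.67 in control muscle. All denervated values lay above all control values, but the step was small, 0.52 ± 0.12 or 1.43-fold (95% interval 0.25 to 0.78, adjusted p = 0.00711, limma). The second Kcnc4 probe gave 0.20 ± 0.15 and was not called (adjusted p = 0.334).

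Kcna5, the delayed rectifier Kv1.5, read 7.29, 6.79 and 6.41 in denervated muscle and 7.84, 7.52 and 7.14 in control muscle, so the groups overlapped. Its difference of -0.67 ± 0.24 just missed the threshold (adjusted p = 0.0543, limma) and passed it in a fit with replicate numbers as blocks (adjusted p = 0.00467) and in several other alternatives. The other genes of these families, Kcna1, Kcna2, Kcna3, Kcna4, Kcna6, Kcna10, Kcnd1, Kcnd2 and Kcnd3, had no kept probe, so the A-type Kv4 channels could not be compared.

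**Figure D2:**
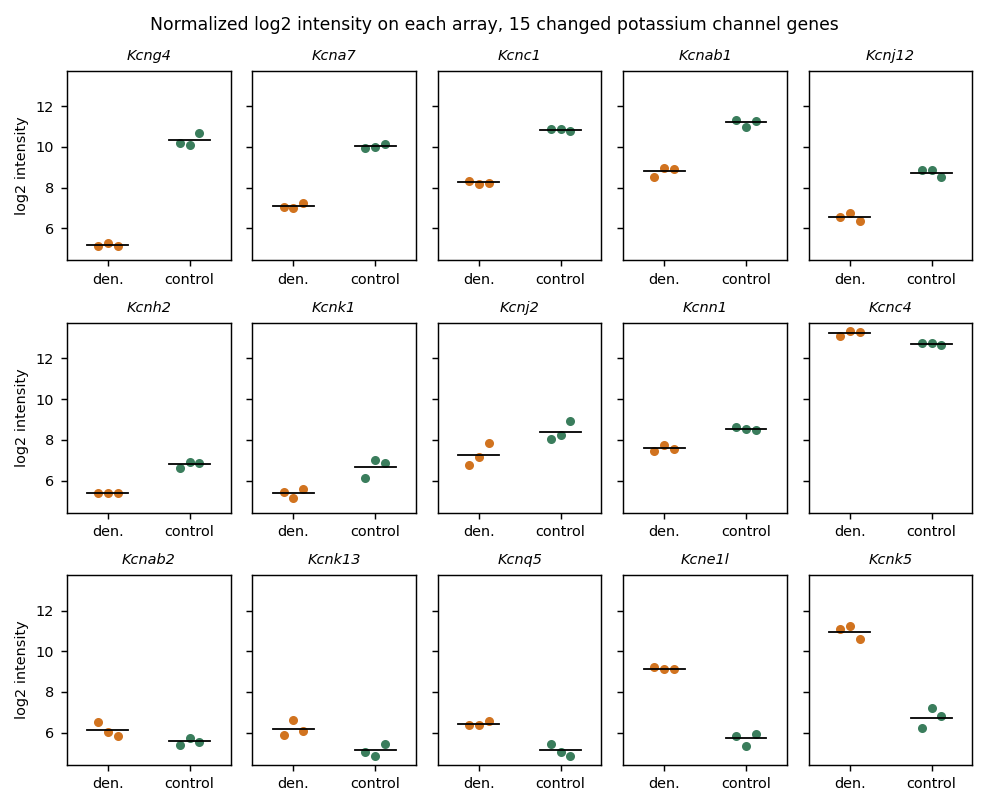
Normalized log2 intensity (vertical axis) of the 15 changed potassium channel genes on each of the 3 denervated (den.) and 3 control arrays, each point 1 array and each line the mean of a group. No panel shows an overlap between the groups, and the smallest gap is that of Kcnab2, between 5.83 and 5.74.

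The modulatory Kv subunits form no channel alone and change the gating of Kv2 pores they join. Kcng4, which codes for Kv6.4, showed the largest fitted fall of any channel gene. It read 5.15, 5.29 and 5.13 in denervated muscle, against 10.21, 10.10 and 10.69 in control muscle. In denervated muscle the probe was above background on none of the 3 arrays, and in control muscle on all 3. The fold is therefore a bound: Kcng4 was at least 25.6-fold lower in denervated muscle (adjusted p = 3.7e-07, limma). For such a bound the brighter group is set against a floor in the dimmer group, which on each array is the dimmest probe above background or, where it is higher, the probe itself. A second Kcng4 probe read 4.80, 4.86 and 4.98 in denervated muscle and 7.02, 6.86 and 7.37 in control muscle, at least 2.69-fold lower (adjusted p = 9.92e-06). Kcnf1, the silent subunit Kv5.1, gave 0.18 ± 0.26 and was not called. The remaining members, Kcng1, Kcng3, Kcns1, Kcns2, Kcns3, Kcnv1 and Kcnv2, had no kept probe.

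Among the Kv7 channels, which carry slow currents that damp repeated firing, Kcnq5 was higher in denervated muscle and Kcnq3 did not pass. Kcnq5, or Kv7.5, read 6.37, 6.38 and 6.59 in denervated muscle and 5.47, 5.07 and 4.85 in control muscle. The probe was above background on every denervated and on no control array, and the gene was at least 1.56-fold higher (adjusted p = 0.000352, limma). Kcnq3 stood at 0.00 ± 0.23, with a 95% interval of -0.52 to 0.51. Kcnq1 had no kept probe.

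Of the EAG, ERG and ELK channels (Kv10 to Kv12) only Kcnh2 was kept. It codes for ERG1, the channel of the rapid repolarizing current of the heart. Kcnh2 read 5.41, 5.39 and 5.37 in denervated muscle, where no array was above background, and 6.60, 6.93 and 6.85 in control muscle, where all were. It was at least 2.20-fold lower in denervated muscle (adjusted p = 4.46e-05, limma). Its 2 dimmer probes, above background on 1 array and on none, were not kept. Without the filter they gave -0.97 (adjusted p = 0.000955, limma) and 0.22 (adjusted p = 0.247), in that order. Kcnh1, Kcnh3, Kcnh4, Kcnh5, Kcnh6 and Kcnh7 had no kept probe.

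**Figure D3:**
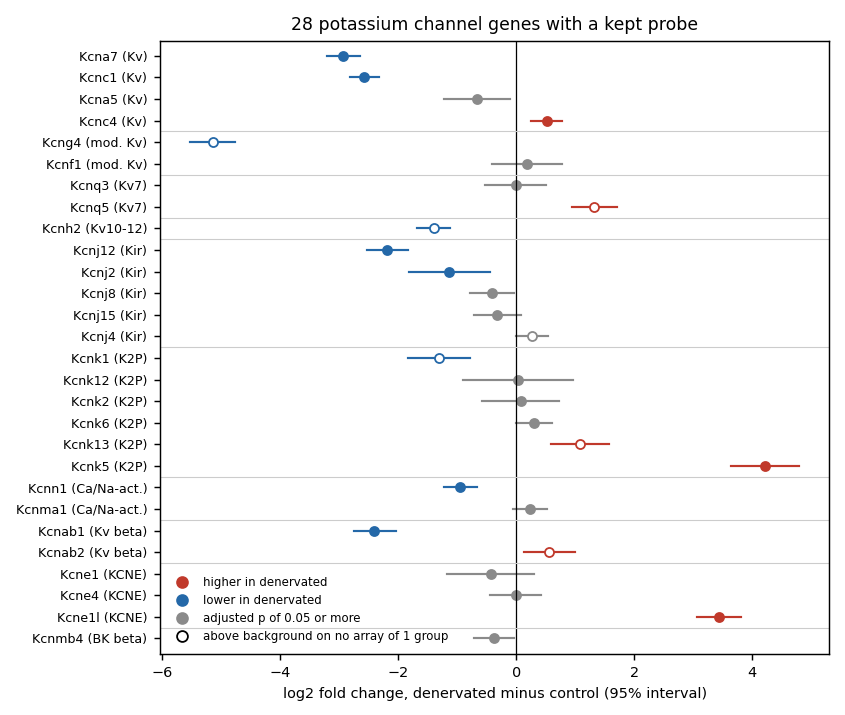
Log2 fold change, denervated minus control (horizontal axis), of the 28 potassium channel genes with a kept probe, grouped by class (vertical axis), with the 95% interval of the model as a line. Points right of 0 are higher in denervated muscle, from 0.52 for Kcnc4 to 4.22 for Kcnk5 among those called, and open points mark genes above background on no array of 1 group, whose fitted values are not exact sizes.

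Of the strong inward rectifiers of the Kir2 family that were kept, Kcnj12 and Kcnj2 were lower in denervated muscle and Kcnj4 was not called. Kcnj12, or Kir2.2, read 6.56, 6.77 and 6.35 in denervated muscle and 8.84, 8.84 and 8.53 in control muscle. It was 4.52-fold lower (-2.18 ± 0.15, adjusted p = 1.07e-05, limma), with no overlap between the groups. Kcnj2 codes for Kir2.1, whose loss of function in humans causes periodic paralysis with arrhythmia. It read 6.76, 7.16 and 7.86 in denervated muscle and 8.03, 8.23 and 8.91 in control muscle, so that the highest denervated value lay just under the lowest control value. The spread within each group was wide, and the change was -1.13 ± 0.30 (2.18-fold lower, adjusted p = 0.0156, limma). Kcnj2 was no longer called without denervated replicate 1 (adjusted p = 0.0516) or denervated replicate 2 (adjusted p = 0.0537). In the fit with replicate numbers as blocks its adjusted p was 0.000572, though the labels do not say that a number marks a mouse.

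Of the other inward rectifiers 3 were kept and 0 called. Kcnj8, or Kir6.1, the pore of ATP-sensitive channels of vessels, gave -0.41 ± 0.17 (adjusted p = 0.0753, limma), and Kcnj15, or Kir4.2, gave -0.32 ± 0.18. Kcnj4, or Kir2.3, was above background on the 3 denervated arrays only and gave 0.27 ± 0.12 (adjusted p = 0.111), its denervated values lying all above the control values. Kcnj1, Kcnj3, Kcnj5, Kcnj6, Kcnj9, Kcnj14 and Kcnj16, among them the G protein-gated channels, had no kept probe. Kcnj11, the pore of the ATP-sensitive channel of the muscle fiber, was not analysed here.

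The K2P channels held the largest rise. Kcnk5 codes for TASK-2, a leak channel that closes in acid and opens in alkaline surroundings. It read 11.07, 11.22 and 10.60 in denervated muscle, against 6.23, 7.20 and 6.81 in control muscle, and it was above background on all 6 arrays. Kcnk5 was 18.6-fold higher in denervated muscle (4.22 ± 0.25, adjusted p = 5.04e-06, limma), the 15th largest rise among all kept genes. Its second kept probe read 8.62, 8.61 and 8.16 in denervated muscle and 5.38, 5.56 and 5.58 in control muscle, where it was above background on no array, and was at least 6.32-fold higher. A further probe, above background on 2 denervated arrays and not kept, gave 0.55 without the filter (adjusted p = 0.0845).

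Kcnk13, or THIK-1, a channel known from microglia, was also higher in denervated muscle. It read 5.89, 6.64 and 6.09 in denervated muscle and 5.07, 4.88 and 5.44 in control muscle, where it was above background on no array. This made it at least 1.32-fold higher (adjusted p = 0.00388, limma). Kcnk1, or TWIK-1, a weak leak channel, moved down: it read 5.42, 5.12 and 5.56 in denervated muscle, all at background, and 6.14, 7.02 and 6.86 in control muscle. Kcnk1 was at least 2.03-fold lower in denervated muscle (adjusted p = 0.00193). Kcnk6, or TWIK-2, gave 0.30 ± 0.14 (and 0.14 by its second probe), the stretch-sensitive TREK-1 channel Kcnk2 gave 0.08 ± 0.29, and Kcnk12, or THIK-2, gave 0.03 ± 0.41, none of them called. Kcnk3, Kcnk4, Kcnk7, Kcnk9, Kcnk10, Kcnk15 and Kcnk18 had no kept probe, so that Kcnk5 was the one TASK channel that could be compared.

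**Figure D4:**
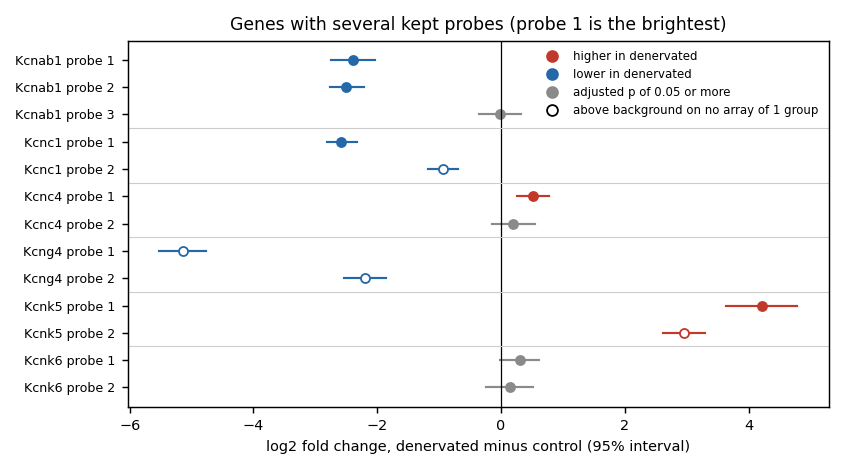
Log2 fold change, denervated minus control (horizontal axis), of every kept probe of the 6 channel genes that had several, with 95% intervals as lines, probe 1 being the brightest over all arrays. The probes of Kcnk5, Kcng4 and Kcnc1 point the same way with different sizes, while Kcnab1 has probes at -2.40, -2.50 and -0.01.

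Among the calcium- and sodium-activated channels Kcnn1 was lower and Kcnma1 was not called. Kcnn1 codes for SK1, a small-conductance channel opened by calcium through calmodulin. It read 7.47, 7.76 and 7.55 in denervated muscle, against 8.61, 8.54 and 8.48 in control muscle, 1.93-fold lower with no overlap (-0.95 ± 0.12, adjusted p = 0.000359, limma). Kcnma1, the large-conductance BK channel, gave 0.23 ± 0.13. Kcnn3 codes for SK3, the apamin-sensitive channel known from rats to appear in muscle after denervation. It was above background on no array, so its level was not shown in either group. Its values were 5.60, 5.56 and 5.57 in denervated muscle and 4.82, 5.21 and 4.97 in control muscle, and it was the one channel gene without a kept probe that was called when all probes entered the fit (0.58, adjusted p = 0.00895). Kcnn2, Kcnn4, Kcnt1 and Kcnu1 had no kept probe.

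The auxiliary subunits moved in both directions. The Kv beta subunit Kcnab1, which binds Kv1 channels inside the cell and speeds their inactivation, read 8.52, 8.97 and 8.91 in denervated muscle and 11.32, 11.00 and 11.28 in control muscle. It was 5.27-fold lower in denervated muscle (-2.40 ± 0.16, adjusted p = 7.8e-06, limma), and a second probe gave -2.50 ± 0.12. Another kept Kcnab1 probe, which was above background on 3 denervated arrays and 1 control array, gave -0.01 ± 0.15 (adjusted p = 0.948). Whether the 3 probes read the same transcripts was not tested.

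Kcnab2, another Kv beta subunit, was called as higher by a narrow margin. It read 6.55, 6.02 and 5.83 in denervated muscle and 5.42, 5.74 and 5.56 in control muscle, where no array was above background. It was at least 1.26-fold higher (adjusted p = 0.0413, limma), but in the fit with replicate numbers as blocks its adjusted p was 0.0541. Without denervated replicate 1 its probe no longer passed the filter. With the probes kept as over all 6 arrays, the log2 fold change of 0.56 became 0.34 without that replicate (adjusted p = 0.119). Kcnab3 had no kept probe.

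Kcne1l, now also called Kcne5, codes for a single-span subunit known from expressed channels to inhibit Kv7.1. It read 9.21, 9.13 and 9.12 in denervated muscle and 5.85, 5.35 and 5.95 in control muscle, where 1 of the 3 arrays was above background. Kcne1l was higher in denervated muscle by a fitted 3.44 ± 0.16 (adjusted p = 1.87e-06, limma), a size that rests on control values mostly at background, and its denervated arrays lay close together. The pore that Kcne1l is known to inhibit, Kcnq1, had no kept probe. Of the same family Kcne1 gave -0.43 ± 0.33 and Kcne4 gave -0.01 ± 0.19, and neither passed. Kcne2 and Kcne3, known as a partner of Kcnc4 in muscle, had no kept probe. The BK beta subunit Kcnmb4 gave -0.37 ± 0.15 (adjusted p = 0.0788), with all denervated values below all control values, and Kcnmb1 and Kcnmb2 were not kept. None of the 4 Kv channel-interacting proteins Kcnip1 to Kcnip4, which serve the Kv4 pores, nor the assembly regulator Kcnrg, had a kept probe.

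In all, 8 of the 15 changed genes were above background on all 6 arrays, 6 were at background on every array of 1 group, and Kcne1l lay between. Genes of 1 class moved apart in the Kv1 to Kv4, K2P and Kv beta classes, where at least 1 gene rose and at least 1 fell, whereas both changed inward rectifiers fell. The Kv beta rise was that of Kcnab2 alone, called by a narrow margin. The rise among Kv1 to Kv4 was that of Kcnc4 alone, whose second probe was not called.

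Proteins that bind potassium channels without bearing the Kcn name were read from a list of 19 genes, of which 14 were on the array and 8 were kept. Of these, 1 was higher in denervated muscle and 5 were lower, with a median of -0.53, beside 22.2% higher and 21.6% lower among all kept genes. Cntnap2, or Caspr2, which gathers Kv1 channels beside the nodes of myelinated axons, read 4.95, 4.93 and 4.90 in denervated muscle and 10.34, 10.21 and 10.38 in control muscle. It was at least 25.2-fold lower in denervated muscle (adjusted p = 7.77e-08, limma). Lgi1, a secreted modulator of Kv1 channels, was at least 1.74-fold lower (adjusted p = 9.63e-05). Abcc8, or SUR1, the sulfonylurea receptor of ATP-sensitive channels, was the one rise. It read 6.84, 7.02 and 7.15 in denervated muscle and 5.13, 4.99 and 4.80 in control muscle, where it was above background on no array, and was at least 2.30-fold higher (adjusted p = 9.3e-06). Abcc9, or SUR2, the receptor of muscle and vessels, gave 0.11 ± 0.12 by its brightest probe and was not called, while a dimmer probe was called higher by a narrow margin (0.32 ± 0.11, adjusted p = 0.0483).

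Lrrc52, an auxiliary subunit of BK-type channels, fell by 0.73 on the log2 scale (adjusted p = 0.00195, limma), and its second probe, at background on the denervated arrays, was at least 3.86-fold lower (adjusted p = 6.92e-06). Amigo1, which joins Kv2.1, fell by 0.56 (adjusted p = 0.00474), but its other kept probe gave -0.02 and the mean of both -0.29 (adjusted p = 0.102). Dpp6, which joins Kv4 channels, fell by 0.50 (adjusted p = 0.0372) and was not called in 4 of the 6 fits that left out 1 array. Akap9, a scaffold of Kv7.1, gave 0.30 ± 0.11 by its brightest probe and was not called (adjusted p = 0.0521), while a dimmer probe was called higher (0.81 ± 0.16, adjusted p = 0.004) and another gave 0.05.

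Genes that pump or cotransport potassium across the membrane were read from a list of 20 genes, of which 15 were on the array and 11 were kept. They belong to the sodium pump with its FXYD regulators and to the cation-chloride cotransporters. No alpha subunit of the sodium pump (Atp1a) was among the 15, so the pump was read by its beta subunits and FXYD regulators only. By the brightest probe of each gene, denervated muscle showed 0 of the 11 kept genes higher and 5 lower, with a median of -0.25. Among all kept genes 22.2% were higher and 21.6% lower. A dimmer Fxyd5 probe was called higher (0.74, adjusted p = 0.00274, limma). The pump subunit Atp1b1 read 10.56, 10.74 and 10.96 in denervated muscle and 12.09, 12.66 and 12.79 in control muscle, a fall of 3.39-fold (-1.76 ± 0.19, adjusted p = 0.000164, limma). Fxyd3 was at background on the denervated arrays and at least 2.18-fold lower (adjusted p = 0.00186). Atp1b4, whose product in placental mammals sits mostly at the nuclear membrane of muscle, fell by 0.76 (adjusted p = 0.00933). Fxyd1, or phospholemman, fell by 0.57 (adjusted p = 0.00859), though its second probe gave 0.11 and the mean of both -0.23 (adjusted p = 0.0885). Atp1b2 fell by 0.34 (adjusted p = 0.035), a call lost in 5 of the 6 fits that left out 1 array and in the fit with replicate numbers as blocks (adjusted p = 0.0568).

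**Figure D5:**
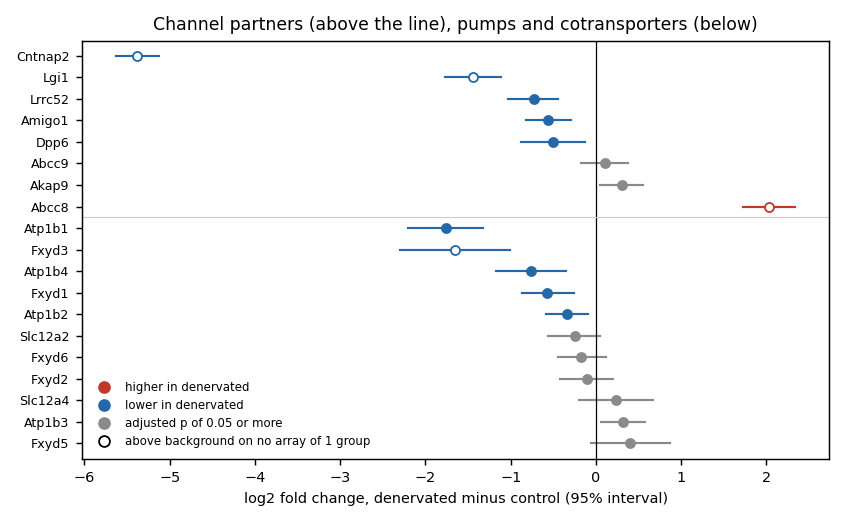
Log2 fold change, denervated minus control (horizontal axis), of kept channel partners (above the grey line) and of kept potassium pumps and cotransporters (under it), with 95% intervals as lines. Cntnap2 and Abcc8 mark the ends of the range, and open points are fitted values against a group at background and not exact sizes. None of the pump and cotransporter genes shown, which include no alpha subunit of the pump, was called higher.

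Cell type markers moved on the same arrays, and their counts stand beside 22.2% higher and 21.6% lower among all kept genes. In a check of the labels, 5 of 5 genes known to rise in muscle that has lost its nerve were higher, among them Chrng (4.65), Chrna1 (4.45) and Runx1 (at least 12.1-fold). Of 10 kept muscle fiber markers 0 were called, with a median of -0.02. However, 5 of these lay near the ceiling of the scanner (raw signal over 60000) on every array and could not show a change. All the others but Myh1 (15460 to 22730) also came over 60000 on at least 1 array. Schwann cell and myelin markers were lower, 5 of 7 kept, with a summed intensity of 2256 to 2507 in denervated muscle and 5973 to 14050 in control muscle. The myelin genes Ncmap and Mal were at background on every denervated array. Egr2 of the same list went the other way without a call (0.65, adjusted p = 0.0975, limma), its denervated values lying all above its control values. Macrophage and leukocyte markers were higher, 8 of 8 kept, with sums of 7059 to 8861 in denervated muscle and 2880 to 3059 in control muscle, led by C1qb (1.62), Lyz2 (1.46) and Tyrobp (1.37). Endothelial markers (6 of 8 kept lower, sums of 10035 to 10692 in denervated and 12571 to 16026 in control muscle) and smooth muscle and pericyte markers (5 of 7 kept lower, sums of 7121 to 10341 in denervated and 11299 to 16147 in control muscle) moved down, and of 7 T cell markers on the array 1 was kept and not called, with sums of 256 to 414 in denervated and 226 to 295 in control muscle. The denervated arrays were also brighter before normalization, with a 95th percentile of the signal of 4000 to 4048, against 2896 to 3022 on the control arrays, and replicates correlated at 0.9878 to 0.9939. The part of these shifts in the channel results was not tested.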

How the data were processed

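Total RNA was labelled with biotin and hybridized to Illumina mouse bead arrays, 1 per sample, and the authors summarized the signals in GenomeStudio (per the labels). The methods of the paper add that ribosomal RNA was depleted before labelling. The main table deposited by the authors gave, for 25697 probes, an unnormalized linear intensity with its bead standard error and bead number and a detection p-value against negative control beads. The authors' quantile-normalized intensity values, deposited separately, served as an alternative. No sample column was left unused (0 columns). The number of arrays limits the precision. Kept channel probes had at least 20 beads and a median bead standard error of 5.37% of the signal.

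Intensities were background-corrected from the detection p-values (offset 16), quantile-normalized and log2-transformed with neqc, and denervated was compared with control by lmFit and eBayes over all kept probes (limma 3.58.1, R 4.3.3), adjusted after Benjamini and Hochberg and called under 0.05. The offset makes log2 fold changes understate the change of dim probes. Probes with a detection p under 0.05 on 3 or more of the 6 arrays were kept, 12546 probes of 8740 genes, and each gene was represented by the kept probe that was brightest on average. Symbols came from the platform annotation, which named 23978 probes and left 1719 without a gene. All 80 channel symbols equalled the RefSeq symbol of their gene number. The fit was first tested on simulated data with known changes. Every channel gene with a kept probe is named, as is every called member of the partner and pump lists, and up to 3 markers per list. Kcnn3 was called without the filter only, and Abcc9, Akap9, Egr2 and the dimmer probes were added after values were seen. The members and lists were chosen with earlier results of these data known. The alternatives changed background correction, offset, scaling, filter, test, moderation, probe choice, the replicate block and the arrays used. The methods list Student's t-test among their tests without tying it to the arrays, so an equal-variance t-test per probe was run as an alternative.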

Additional observations from a re-analysis of the deposited data

How the results depend on the processing

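Of the 15 changed channel genes none changed direction under any alternative run, and apart from the t-tests, the strictest filter and the fits without an array each alternative shared 14 or 15 of the calls. Without background correction, with the authors' normalized values, with an offset of 50, with trend and robust moderation and with replicate numbers as blocks Kcnab2 was lost and Kcna5 gained. With this replicate block 3794 of all genes were called, and 5 channel genes were higher and 10 lower. Same-numbered arrays deviated from their group means with correlations of -0.017, 0.161 and 0.164, and differently numbered arrays with -0.235 to 0.132. With 3 arrays per group these values cannot decide whether the numbers pair the samples. The labels do not say so, and the block was kept as an alternative only. The methods' t-test called 13 channel genes unadjusted (4126 of all genes) and 12 after adjustment (3007 of all genes), without Kcnab2 and Kcnj2 and, once adjusted, Kcnk13. Restricting the fit to probes above background on all arrays left 2 channel genes higher, since genes at background in 1 group drop out by construction.

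With each array left out in turn, 3 to 6 channel genes were higher and 6 to 10 lower. Without a control array Kcng4, Kcnh2 and Kcnk1 left the fit, as Kcnab2, Kcnk13 and Kcnq5 did without a denervated array, because the filter asks for 3 of the remaining arrays. With the probes kept as over all 6 arrays, an alternative added after seeing the data, 13 to 16 channel genes were called, and Kcnj2 was lost without denervated replicate 1 or 2 and Kcnab2 in 5 of the 6 fits.

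Scaling moved the balance of all genes. With arrays shifted to 1 median, the median of all genes was 0.20 and 3042 were higher and 1116 lower (73.2% of calls higher, against 50.6%), all 15 channel calls were kept, and Kcnk6 and Kcnma1 were added, whereas Amigo1, Atp1b2, Atp1b4, Dpp6 and Fxyd1 were lost. With 1 median over probes above background on all arrays, also added after seeing the data, 43.9% of 4005 calls were higher and the median was -0.07, and 5 channel genes were higher and 12 lower, with Kcnab2 lost and Kcna5, Kcnj15 and Kcnmb4 added. Among genes not called the sign turned for Kcne4 (0.04 with 1 median, -0.11 to 0.09 with 1 array left out), Kcnk12 (-0.21 with the added median, -0.24 to 0.4), Kcnf1 (-0.08 to 0.42) and Kcnk2 (-0.25 to 0.36); the cause was not tested. Changes of dim probes shrank by construction without background correction: Kcng4 to -3.34, Kcnk13 to 0.49, Kcnq5 to 0.59, Kcnh2 to -0.59, Kcnk1 to -0.57 and Kcne1l to 2.07. Signal near background limits the sizes given for these genes and hides any change in the 52 genes without a kept probe.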
